A study of Mus musculus with 13 samples.

Results

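Chemokine receptors are the G protein-coupled receptors with which lymphocytes read gradients of chemokines, the small secreted proteins that direct cells between lymphoid organs, blood and tissue. Each receptor binds its own set of ligands, couples mainly to inhibitory G proteins, and sets which tissue a T cell can enter or stay in. In regulatory T (Treg) cells, receptors such as CCR4, CCR8 and CCR10 are known for skin and other barrier tissues, CCR9 for the gut, CXCR6 for liver and lung, and CCR2 for inflamed sites. The transcripts described here are those of 9 tissue-homing receptors, Ccr2, Ccr3, Ccr4, Ccr8, Ccr9, Ccr10, Cxcr4, Cxcr6 and Cx3cr1, chosen by gene symbol from the 24417 named genes counted in each of the 2 experiments, and all 9 were found and passed the filter on low counts in both experiments.

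Bulk RNA-seq was available for 13 libraries of sorted CD4 T cells from spleen and lymph nodes of C57BL/6 mice. In the male experiment all mice received 4-hydroxytamoxifen (4-OHT) once, at postnatal day 14, and were analyzed at day 21. Control Treg cells (n = 3) came from healthy Foxp3DTR-GFP/yCd4creERT2 mice, which carry a working Foxp3 allele that also encodes the diphtheria toxin receptor and GFP. Rescued Treg cells (n = 3) came from Foxp3LSL/yCd4creERT2 mice, whose Foxp3 allele is silenced by a loxP-flanked Thy1.1-STOP cassette until 4-OHT activates the Cre recombinase expressed from Cd4, so that excision can occur in any Cd4-expressing cell. Male Treg “wannabes” (n = 2) came from Foxp3LSL/yCd4wt mice, which carry the silenced allele without the recombinase, remain sick, and mark with Thy1.1 the cells that would have become Treg cells. In the female experiment all mice, labelled 9 to 11 weeks old, received diphtheria toxin 7, 5, 3 and 1 days before analysis. Resting “wannabes” (n = 3) came from Foxp3LSL/WTCd4wt females, which keep the Treg cells made with the wild-type allele. Activated “wannabes” (n = 2) came from Foxp3LSL/DTRCd4wt females, in which the toxin removes the Treg cells that express the DTR allele. Control and rescued Treg cells differ in allele, in disease of the host and in time since Foxp3 was first expressed, and these cannot be told apart. The study's methods describe the libraries of a population as biological replicates, and the p-values measure the spread between them.

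Total counts on named genes were 25556783 to 36659638 per male library and 28059854 to 31462226 per female library. Foxp3, the check of the labels, had normalised read counts of 5479, 7058 and 8264 in control Treg cells, 28383, 29816 and 36405 in rescued Treg cells, and 2762 and 3274 in male “wannabes”. In the female “wannabes” it lay between 1568 and 2229.6, and the counts do not separate reads of different Foxp3 alleles. The 8 T cell markers were detected in all libraries, with summed normalised counts of 163079 to 249040.4. A normalised read count is the count scaled by edgeR's TMM library size to the mean library of its own experiment. All fold changes below come from the quasi-likelihood F test of edgeR, whose p-values were adjusted by the Benjamini-Hochberg method over every gene tested, and a transcript was called changed at an adjusted p under 0.05. In bulk samples, a change in the share of cells that express a receptor and a change in the amount per cell cannot be told apart.

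In the GENCODE annotation of GRCm38, 7 of the 9 genes lie on chromosome 9. Ccr3 (124021972 to 124031689), Ccr2 (124101950 to 124113557), Cxcr6 (123806475 to 123811760), Ccr9 (123678439 to 123784330) and Ccr8 (120092114 to 120094906) are on the plus strand, and Ccr4 (114490316 to 114504916) and Cx3cr1 (119901616 to 120069879) on the minus strand. Ccr10 lies on chromosome 11 (101172997 to 101175443) and Cxcr4 on chromosome 1 (128588199 to 128592293), both on the minus strand. The sequences just upstream of 3 of them, from RefSeq on GRCm38.p6, are shown because these receptors gave the contrasting patterns below: Ccr3 was called higher in both Treg populations than in male “wannabes”, Cxcr6 lower in both, and Ccr8 was called in activated against resting “wannabes” alone among the 4 comparisons. Each is printed 5′ to 3′ along the gene, without bases of the gene's own exons, at chr9:124021721-124021970 for Ccr3, chr9:123806227-123806474 for Cxcr6 and chr9:120091883-120092113 for Ccr8.
Ccr3: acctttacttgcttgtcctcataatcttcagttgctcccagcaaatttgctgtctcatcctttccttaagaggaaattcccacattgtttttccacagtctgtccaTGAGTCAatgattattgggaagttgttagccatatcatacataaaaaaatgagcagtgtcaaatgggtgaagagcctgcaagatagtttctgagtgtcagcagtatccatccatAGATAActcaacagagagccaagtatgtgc
Cxcr6: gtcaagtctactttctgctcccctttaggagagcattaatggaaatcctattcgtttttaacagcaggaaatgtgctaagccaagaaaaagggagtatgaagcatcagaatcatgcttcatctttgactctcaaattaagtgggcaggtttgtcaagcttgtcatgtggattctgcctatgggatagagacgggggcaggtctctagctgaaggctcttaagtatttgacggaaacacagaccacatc
Ccr8: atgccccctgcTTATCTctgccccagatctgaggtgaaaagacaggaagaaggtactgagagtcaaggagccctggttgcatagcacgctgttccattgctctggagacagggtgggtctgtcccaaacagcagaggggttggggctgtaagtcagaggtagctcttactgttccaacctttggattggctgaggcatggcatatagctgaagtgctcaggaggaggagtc
Capitals mark matches, on either strand, to the motif letters searched: TGANTCA for AP-1, TTCNNNGAA for STAT factors, TGTTTAC for forkhead factors, AGATAA for the GATA family and TGTGGTT for RUNX factors. The Ccr3 window held an AP-1 match 144 bases and a GATA match 30 bases before the start of the transcript, the Ccr8 window held a GATA match on the opposite strand, and the Cxcr6 window held none of the 5. Of 32851 windows of 250 bases upstream of annotated starts, 6.75% held the AP-1, 7.02% the STAT, 3.17% the forkhead, 9.99% the GATA and 4.4% the RUNX letters, so such matches are common and describe the sequence only.

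To ask which receptors distinguished Treg cells restored in sick mice from Treg cells of healthy mice, rescued were compared with control Treg cells. Ccr2 and Cxcr6 rose and no member fell, in edgeR and in DESeq2, and at an unadjusted p under 0.05 3 members, with Ccr8, were higher and 0 lower. These 2 of 9 members stood against a background of 1.43% of 14925 tested genes called higher and 0.864% called lower, and the median log2 fold change was 0.40 over the members and -0.03 over all genes. The libraries of both groups did not overlap for 4 members, against 24.2% of all genes.

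Ccr2, the receptor for monocyte-attracting chemokines such as CCL2, had normalised counts of 5287, 4089.9 and 4692 in the control and 29742, 23634 and 20946 in the rescued libraries. The lowest rescued library was thus far above the highest control library. The log2 fold change was 2.40 ± 0.22 (SE), a 5.28-fold higher level (adjusted p = 0.000517), and every one of the 8 fits that left out a library kept the call, with log2 fold changes from 2.25 to 2.51. Male “wannabes” had 8289.7 and 4954, between the Treg populations in one library and within the control range in the other. Rescued Treg cells were also above the male “wannabes” (log2 fold change 1.90 ± 0.25, adjusted p = 0.000589), whereas control Treg cells and male “wannabes” did not differ past the threshold (log2 fold change -0.50, adjusted p = 0.160). Without male “wannabe” replicate 2, where a single “wannabe” library is left, that comparison gave -0.87. Ccr2 was therefore the member whose highest level was in the rescued cells alone, with both other male populations lower by the test.

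Because Ccr2 also marks monocytes, the markers of monocytes and macrophages were read in the same libraries. The 8 markers together reached normalised counts of 158 to 380.3 in control, 179 to 466 in rescued and 109 to 219.8 in male “wannabe” libraries. Most of the control sum was Itgam (108 to 341, and 53.1 to 201 in rescued libraries), which some lymphocytes also express. Cd68 was at 7.51 to 22.8 in control and 101 to 168 in rescued libraries, without overlap (log2 fold change 3.01, adjusted p = 0.0887). In male “wannabes” Cd68 was at 30.1 and 186. In the female experiment, where Ccr2 was not called, it lay at 12.6 to 34.3 in resting and at 56.3 and 63.3 in activated libraries. The 5 markers tested had a median log2 fold change of 1.45 in rescued against control Treg cells, and their part in the Ccr2 change was not tested. Cd14 and Fcgr1 were at 0 in all control libraries and Csf1r and Cd14 at 0 in both male “wannabe” libraries, while none was at 0 throughout the rescued libraries. Of the 50-base stretches of Ccr2's exons, 1.91% also occurred in other genes.

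Cxcr6, the receptor for the membrane-bound chemokine CXCL16, had normalised counts of 1576, 1193 and 1026 in control, 3723, 5110.4 and 3088 in rescued and 9827 and 8727 in male “wannabe” libraries. The 3 populations formed separate steps with no overlap. The summed NK cell markers were also lowest in control libraries, at 20.4 to 43.4, against 129 to 269.6 in rescued and 151 to 252 in male “wannabe” libraries, and their part in the Cxcr6 counts was not tested. Rescued exceeded control Treg cells by a log2 fold change of 1.65 ± 0.22 (adjusted p = 0.00498) and stayed under the “wannabes” by -1.22 ± 0.24 (adjusted p = 0.0059). Control Treg cells were below the “wannabes” by -2.87 ± 0.24 (adjusted p = 0.00016), and the 3 calls held in every fit without 1 library. In the female experiment the counts were 8746, 13209 and 4959 in resting and 7997 and 8943 in activated “wannabes”. The groups overlapped, and the test found no change past the threshold (a log2 value of -0.08 with an adjusted p of 0.888).

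Cxcr6 lies inside Fyco1, which is on the opposite strand, with 5286 bases of gene overlap and 0 bases of exon overlap. Fyco1, an adaptor of vesicle transport, had normalised counts of 3557 to 4108 in control, 6114 to 7705 in rescued and 11904 and 12253 in male “wannabe” libraries, the same order as Cxcr6. Whether the counting used strand is not given in the sources used here, so without strand the reads of Cxcr6 and of unspliced Fyco1 RNA cannot be told apart, and the part of Fyco1 in the Cxcr6 counts was not tested.

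**Figure D1:**
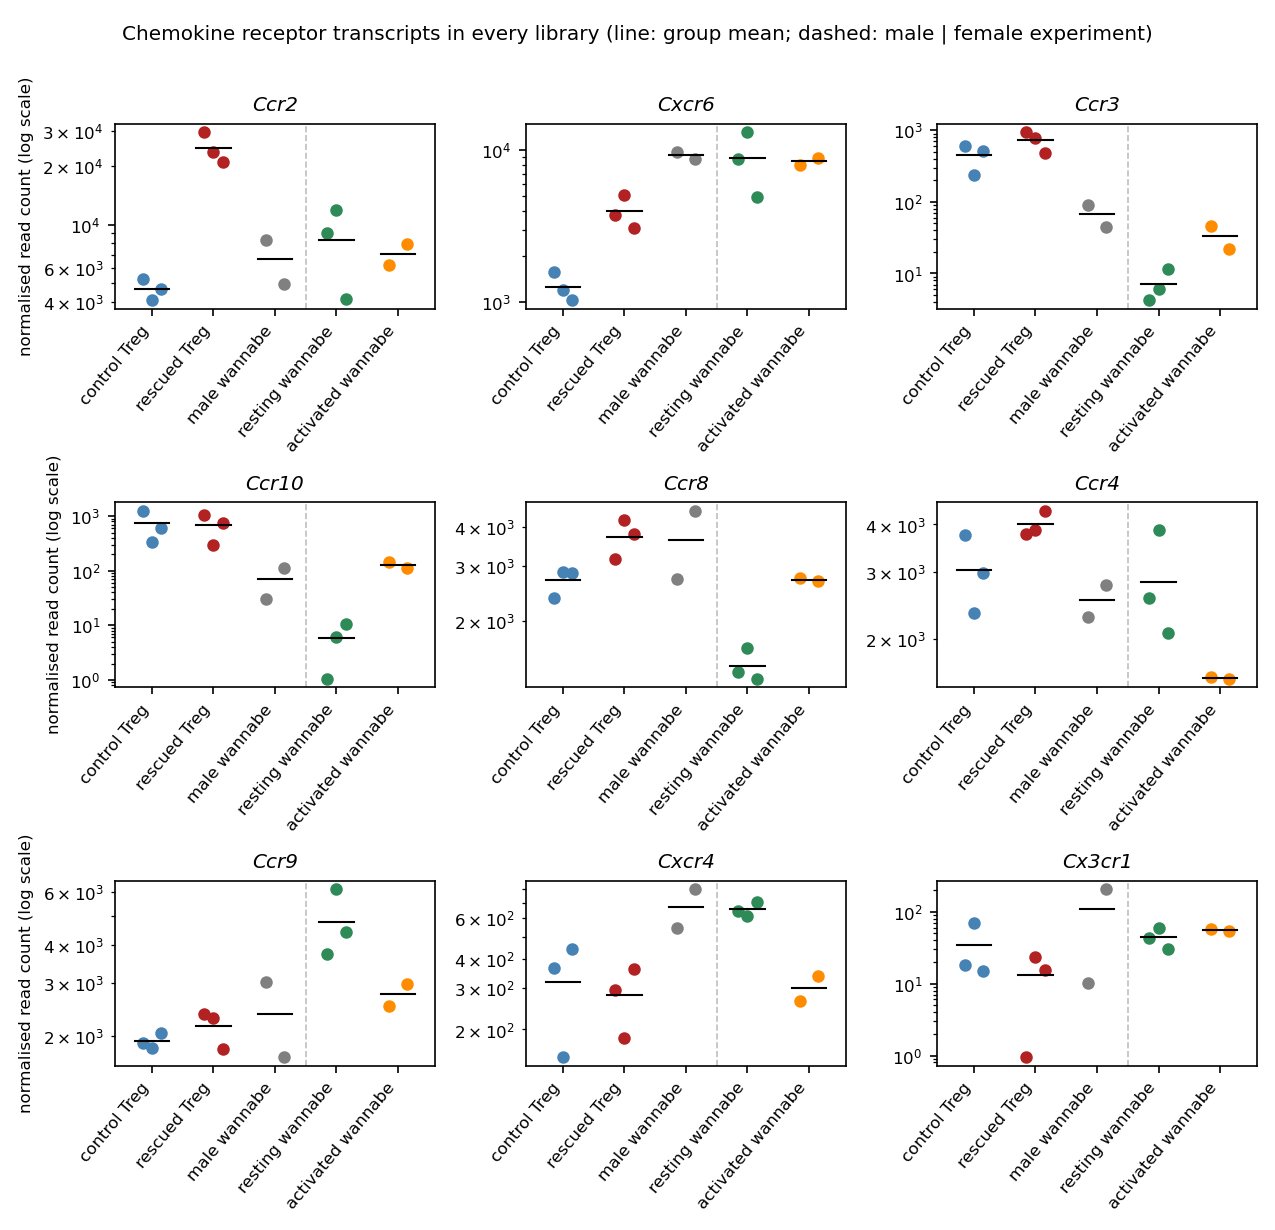
Normalised read count of each of the 9 receptor transcripts on a log axis, with 1 point per library, a line at the mean of each population, and a dashed line between the male and female experiments, which were scaled separately. Ccr2 is highest in the 3 rescued libraries (20946 to 29742), Cxcr6 rises in steps from control Treg cells to male “wannabes”, and Ccr3 and Ccr10 are lower in both male “wannabe” libraries than in any Treg library.

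The comparison of control Treg cells with male “wannabes” asked how receptor transcripts differ between Foxp3-sufficient cells of healthy mice and Foxp3-deficient cells of sick mice. Ccr3 and Ccr10 were higher in the control Treg cells and Cxcr6 was lower. Markers called in the same comparison were Itgam, higher in control Treg cells (log2 fold change 4.03, adjusted p = 0.0256), and Klrb1c (-2.85, adjusted p = 0.0263), Hba-a1 (-3.17, adjusted p = 0.0483) and Cd4 (-1.51, adjusted p = 0.000456), lower, with Cd28 higher (0.64, adjusted p = 0.0178), and their part was not tested. These 2 members higher and 1 lower are to be read against 9.92% of all tested genes called higher and 6.27% lower, and the 4 members without overlap between the groups against 46.1%, which is close to the members' own share. The members' median log2 fold change was -0.42 and that of all genes 0.09. In rescued Treg cells against male “wannabes”, Ccr2, Ccr3 and Ccr10 were higher and Cxcr6 lower, against 10.0% and 4.06% of all genes, and 6 members did not overlap, against 42.7%. Both comparisons use the same 2 “wannabe” libraries.

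Ccr3, the eotaxin receptor known from eosinophils and from type 2 responses, had normalised counts of 601, 236 and 509 in control and 947, 784 and 483 in rescued Treg cells, but 89.3 and 44.2 in male “wannabes”. Every Treg library was above both “wannabe” libraries. The log2 fold change was 2.74 ± 0.53 for control (adjusted p = 0.00581) and 3.46 ± 0.55 for rescued Treg cells (adjusted p = 0.00179), called in every fit without 1 library. Between rescued and control Treg cells the log2 fold change was 0.72 (adjusted p = 0.446). Of the eosinophil markers, all 6 (Siglecf, Epx, Prg2, Il5ra, Ear1 and Ear2) were at 0 in the control libraries, their sum was 0.945 to 25.9 in the rescued libraries, and in the male “wannabes”, where Ccr3 was low, it was 0 and 45.2, and their part in the Ccr3 counts was not tested. Ccr3 shared no 50-base exon stretch with another gene.

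Ccr10, the receptor for the epithelial chemokines CCL27 and CCL28, had normalised counts of 1263, 334 and 604 in control and 1049, 301 and 733 in rescued Treg cells, and 30.1 and 113 in male “wannabes”. Treg libraries varied widely among themselves, with an SD of 478 around a mean of 733 in control cells, yet the lowest was above both “wannabe” libraries. The log2 fold change was 3.36 ± 0.77 for control (adjusted p = 0.0136) and 3.28 ± 0.77 for rescued Treg cells (adjusted p = 0.0153). Both calls were lost without male “wannabe” replicate 1, where the log2 fold changes were 2.69 (adjusted p = 0.0605) and 2.61 (adjusted p = 0.0710). Rescued and control Treg cells gave -0.08 (adjusted p = 0.973). Ccr10 lies inside Cntnap1 on the opposite strand, with no exon overlap, and Cntnap1 had 68.7, 24.6 and 47.2 normalised counts in control, 117, 20.7 and 87.2 in rescued and 0 and 10.8 in male “wannabe” libraries. Within each of these groups the libraries stood in the same order for both genes. In the female groups they did not. Cntnap1 had 14.7, 5.10 and 9.35 in resting and 12.3 and 18.1 in activated libraries. In the same libraries Ccr10 had 1.05, 6.12 and 10.4, and 142 and 111. The part of Cntnap1 in the Ccr10 counts was not tested.

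The other members were not called in the male experiment. Ccr8, the CCL1 receptor of skin-homing and highly activated Treg cells, had normalised counts of 2375, 2886 and 2865 in control, 3159, 4229 and 3815 in rescued and 2738 and 4532 in male “wannabe” libraries. The rescued libraries all lay above the control libraries, but the log2 fold change of 0.46 gave an adjusted p of 0.305. Control Treg cells against “wannabes” gave -0.42 (adjusted p = 0.239), and -0.75 without male “wannabe” replicate 1, where a single “wannabe” library is left. Ccr4, the receptor for CCL17 and CCL22, had 3755, 2345 and 2985 in control, 3779, 3874 and 4353 in rescued and 2291 and 2776 in male “wannabe” libraries. Its rescued libraries were likewise above every other male library, and neither the difference from control (log2 fold change 0.40, adjusted p = 0.333) nor that from “wannabes” (0.66, adjusted p = 0.0697) passed the threshold, although DESeq2 called the latter with an adjusted p of 0.0321.

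Ccr9, the receptor for the gut and thymus chemokine CCL25, had 1893, 1829 and 2049.5 in control, 2358, 2291 and 1816 in rescued and 3016 and 1702 in male “wannabe” libraries, and all 3 populations overlapped (rescued against control log2 fold change 0.16, adjusted p = 0.814). Cxcr4, the CXCL12 receptor that retains cells in bone marrow and lymphoid tissue, had 368, 152 and 441 in control, 295, 184 and 365 in rescued and 545 and 801 in male “wannabe” libraries. Both “wannabe” libraries were above all 6 Treg libraries, but the log2 fold changes of control and rescued Treg cells against them, -1.07 (adjusted p = 0.140) and -1.26 (adjusted p = 0.0994), were not called by edgeR, and DESeq2 called the latter with an adjusted p of 0.0400. Cx3cr1, the fractalkine receptor of monocytes and cytotoxic lymphocytes, had 18.2, 69.3 and 15.1 in control, 0.945, 23.3 and 15.6 in rescued and 10.3 and 206 in male “wannabe” libraries. The male “wannabe” mean of 108 rests on replicate 2, in which the NK cell markers summed to 252 and the monocyte markers to 219.8, against 151 and 109 in replicate 1, and their part in the Cx3cr1 count was not tested.

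**Figure D2:**
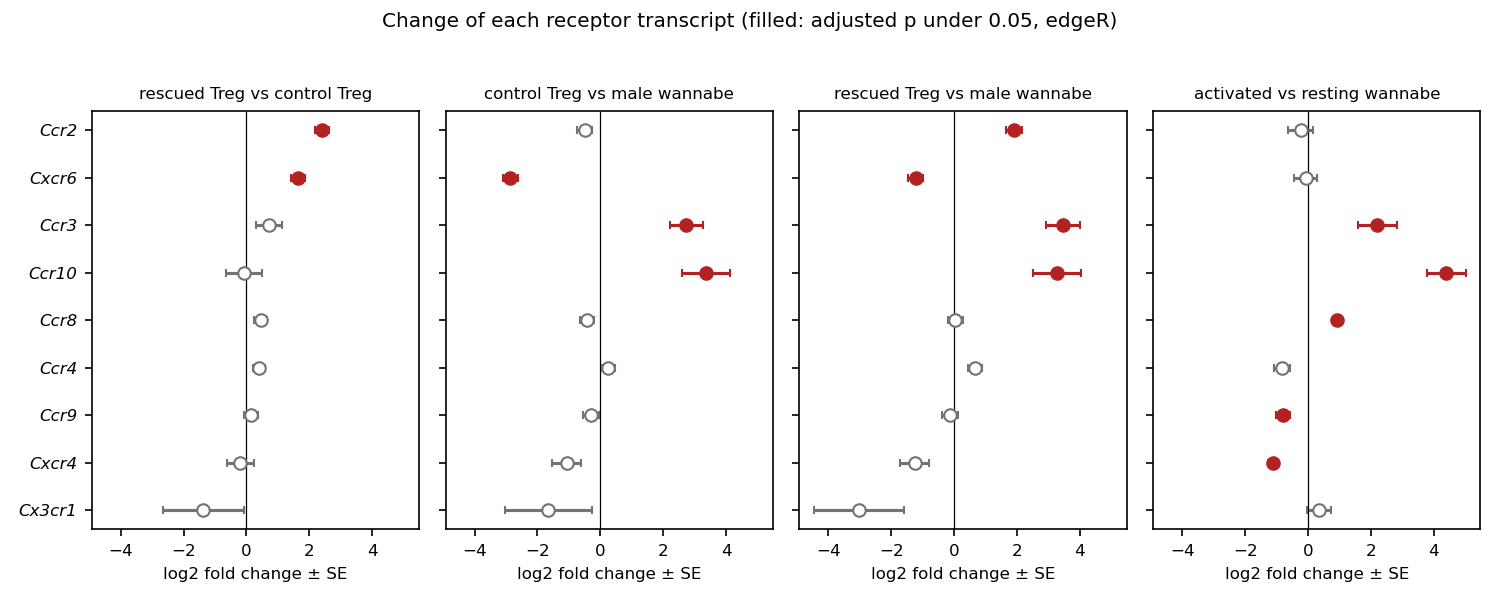
Log2 fold change of each receptor transcript with its standard error in 4 comparisons, with filled points where the adjusted p was under 0.05 in edgeR. Ccr2 and Cxcr6 are the members called in rescued against control Treg cells, and Ccr4 and Cx3cr1 are open in all 4 comparisons.

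In the female experiment, the question was how “wannabes” respond when Treg cells are removed from the same host. In activated against resting “wannabes”, Ccr3, Ccr8 and Ccr10 rose and Ccr9 and Cxcr4 fell. Here 11.3% of 13166 tested genes were called higher and 11.2% lower, and the 6 members whose groups did not overlap stood against 56.5% of all genes. The members' median log2 fold change was -0.08 and that of all genes -0.01. Except for Ccr8, each call depended on 1 or more single libraries. Marker sums of B cells, dendritic cells, NK cells, monocytes and CD8 T cells were higher in the activated libraries without overlap, that of mast cells and basophils was lower (37.8 and 46.8 against 64.2 to 111), and those of erythroid cells, eosinophils, neutrophils and thymocytes overlapped. In resting libraries the sums of B cells lay between 292 and 368, of dendritic cells between 97.8 and 130.5, of NK cells between 45.7 and 76.4, of monocytes between 50.5 and 154 and of CD8 T cells between 288 and 412. In activated libraries they lay at 672 and 739, 200.4 and 239, 86.9 and 121, 190.0 and 291, and 423 and 473. Of single markers Gzmk of the NK cell list, at 0 to 2.08 normalised counts in resting and a mean of 19.9 in activated libraries (log2 fold change 4.62, adjusted p = 0.0205, lost without either activated library), and Cd79b (1.34, adjusted p = 0.00193) were called higher, and the T cell genes Cd28 (-0.84, adjusted p = 0.000871) and Cd3e (-0.29, adjusted p = 0.0320) lower. The part of other cells in the receptors' changes was not tested. In a fit without 1 activated library, or 1 male “wannabe” library, the remaining one is assumed to vary like the other groups.

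Ccr8 had normalised counts of 1373, 1649 and 1309 in resting and 2750.2 and 2695 in activated “wannabes”, and the groups were well apart. The log2 fold change was 0.92 ± 0.12 (adjusted p = 0.00353) and was called in all 5 fits without 1 library. Its ligand gene Ccl1 rose in the same libraries, from 0 to 8.15 in resting to 127 and 209.8 in activated libraries, a log2 fold change of 5.56 ± 0.78 (adjusted p = 0.00474), not called without activated replicate 1 (adjusted p = 0.0566).

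Ccr10 had normalised counts of 1.05, 6.12 and 10.4 in resting and 142 and 111 in activated “wannabes”. The log2 fold change was 4.40 ± 0.61 (adjusted p = 0.0047), with 3.92 to 5.08 over the fits without 1 library, and the call was lost without activated replicate 1 (4.21, adjusted p = 0.0555). Ccr3 had 4.21, 6.12 and 11.4 in resting and 45.4 and 22.0 in activated “wannabes”. These counts are small, and the log2 fold change of 2.20 ± 0.62 (adjusted p = 0.0479) was called in 1 of 5 fits without 1 library. It gave 1.58 (adjusted p = 0.326) without activated replicate 1, 2.61 (adjusted p = 0.129) without activated replicate 2, 1.93 (adjusted p = 0.0980) without resting replicate 1 and 2.09 (adjusted p = 0.0901) without resting replicate 2.

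Cxcr4 had normalised counts of 645, 616 and 702 in resting and 266 and 339 in activated “wannabes”. The log2 fold change was -1.11 ± 0.16 (adjusted p = 0.00563), and the call was lost without activated replicate 1 (-0.95, adjusted p = 0.0581). Ccr9 had 3749.9, 6129 and 4432 in resting and 2521 and 2977 in activated “wannabes”, with a log2 fold change of -0.80 ± 0.21 (adjusted p = 0.0394). Its call was lost without activated replicate 1 (-0.68, adjusted p = 0.217), activated replicate 2 (-0.93, adjusted p = 0.134) or resting replicate 3 (-0.85, adjusted p = 0.0577). Of Ccr9's 50-base exon stretches, 20.1% also occur in other genes, most of them in an overlapping transcript that the count tables do not list. Ccr9 also overlaps Lztfl1, on the opposite strand, by 23282 bases, with 0 bases of exon overlap. Lztfl1 had normalised counts of 1934 to 3644 in resting and of 748 and 834 in activated libraries. Its part in the Ccr9 counts was not tested.

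Ccr4 had normalised counts of 2561, 3861 and 2073 in resting and 1588 and 1571 in activated “wannabes”. The activated libraries were lowest and did not overlap with the resting ones, but the log2 fold change of -0.84 missed the threshold (adjusted p = 0.0563), and it passed without resting replicate 2 (-0.55, adjusted p = 0.0306) or resting replicate 3 (-1.02, adjusted p = 0.0210) and in DESeq2 (adjusted p = 0.00535). Ccr2 had 9012, 11923 and 4154 in resting and 6184 and 7979 in activated “wannabes”, with the activated libraries inside the resting range (log2 fold change -0.24, adjusted p = 0.696). Cx3cr1 had 43.1, 59.1 and 30.1 in resting and 57.6 and 54.4 in activated “wannabes”, which also overlapped (log2 fold change 0.34, adjusted p = 0.554). Resting replicate 3 was the lowest resting library for Ccr2, Cxcr6, Ccr4, Ccr8 and Cx3cr1. It was the highest for Ccr3 (11.4), Ccr10 (10.4) and Cxcr4 (702), and lay between the others for Ccr9 (4432). Its erythroid markers summed to 544, against 29.5 and 45.9 in the other resting libraries, and their part in these values was not tested.

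In both experiments cells of hosts that had lacked Treg cells were set against cells of hosts that had them throughout, once in Foxp3-restored cells and once in cells without Foxp3. Their changes were subtracted from each other in 1 contrast of a fit to the 13 libraries, and sex, age and treatment differ between the experiments together with Foxp3. Of 15201 genes, 1.53% were called, and of the 9 members Ccr2 and Ccr10. For Ccr2 the change in activated against resting “wannabes” was lower than that in rescued against control Treg cells by a log2 difference of -2.65 ± 0.47 (adjusted p = 0.0136). It was not called without activated replicate 1 (-2.48, adjusted p = 0.107) or activated replicate 2 (-2.85, adjusted p = 0.0737). For Ccr10 the difference was 4.46 ± 1.02 in the opposite direction (adjusted p = 0.0471), called in 4 of 13 fits without 1 library, with values from 3.82 without control Treg replicate 1 to 5.15 without resting replicate 3. Its call was also lost without either activated library, control replicate 3, rescued replicate 2 or 3, or resting replicate 1 or 2, with adjusted p from 0.0524 to 0.171 over all 9 fits without the call. Cxcr6, called in the male experiment and not in the female, had a difference of -1.75 that was not called (adjusted p = 0.0721), so its change was not shown to differ between the experiments, and DESeq2 called it with an adjusted p of 0.00441. Without resting replicate 3 it was called at -2.04 (adjusted p = 0.0110). Ccr4 likewise passed in DESeq2 (adjusted p = 0.0104) and without resting replicate 3 (-1.44, adjusted p = 0.0442), but not in the main edgeR fit (-1.26, adjusted p = 0.0870). Without a filter on low counts edgeR called both, Cxcr6 at -1.76 (adjusted p = 0.0339) and Ccr4 at -1.27 (adjusted p = 0.0486).

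**Figure D3:**
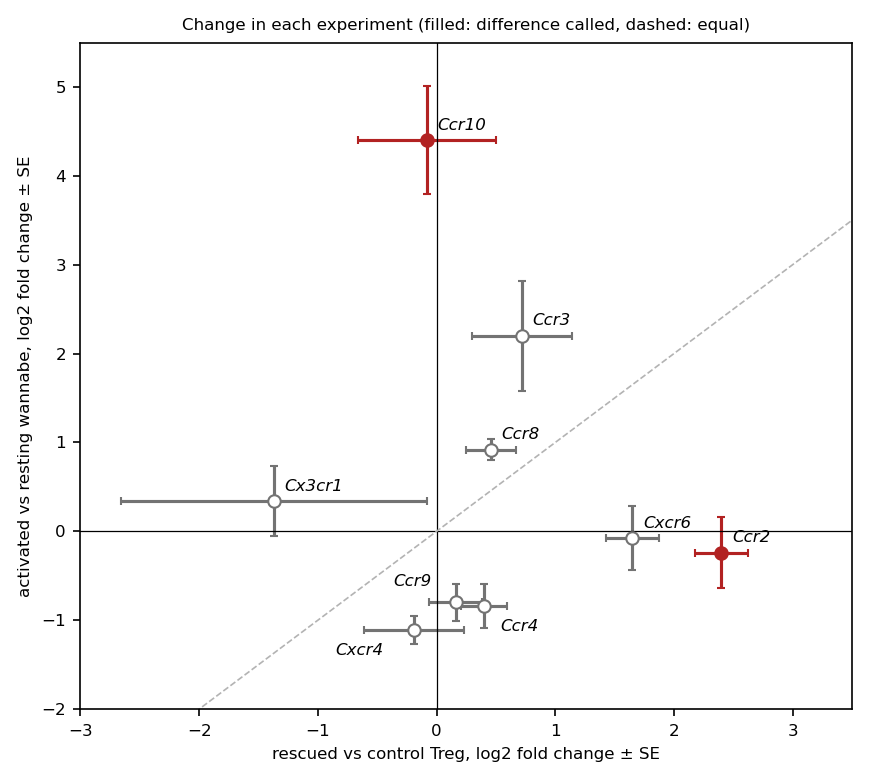
Log2 fold change with standard error of each receptor transcript in rescued against control Treg cells on the horizontal axis and in activated against resting “wannabes” on the vertical axis, with filled points where the difference was called and a dashed line at equal changes. Ccr2 lies far right near 0 on the vertical axis (2.40 and -0.24), and Ccr10 high up near 0 on the horizontal axis (4.40 and -0.08).

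Levels were compared between receptors per kb of exon, as TMM-scaled CPM (counts relative to the scaled size of the library) divided by the length of all annotated exons. In control Treg cells Ccr8 was highest at 70.3 ± 7.50 CPM per kb (SD, n = 3), above Ccr4 at 29.8 ± 6.96, Ccr2 at 21.1 ± 2.7 and Cxcr6 at 16.2 to 24.9, and the libraries of Ccr4, Ccr2 and Cxcr6 overlapped. In rescued Treg cells Ccr2 led at 112 ± 20.3 with Ccr8 at 96.9 ± 14.0, whose libraries overlapped, followed without overlap by Cxcr6 at 62.7 ± 16.3 and Ccr4 at 39.4 ± 3.03. Ccr2 thus made up 12.5% of the summed level of the 9 receptors in control and 32.7% in rescued Treg cells.

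In all 3 “wannabe” populations Cxcr6 was highest, at 146 ± 12.3 CPM per kb in male (n = 2), 156 ± 72.0 in resting (n = 3) and 148 ± 11.7 in activated (n = 2) cells. It made up 46.3%, 52.4% and 49.9% of the receptors' sum, against 11.8% in control Treg cells. Ccr8 came next at 94.3 ± 32.9 in male and at 78.0 ± 1.12 in activated “wannabes”. In resting “wannabes” Ccr2 at 41.7 ± 19.6 and Ccr8 at 41.4 ± 5.18 came next, and their libraries overlapped. The lowest receptors of the “wannabe” populations were Ccr3, Ccr10 and Cx3cr1, with Ccr3 at 0.0746 ± 0.0385 and Ccr10 at 0.114 ± 0.0912 in resting cells. In both Treg populations Cx3cr1 was lowest, at 0.0899 ± 0.0769 in rescued cells, whereas Ccr10 ranked in the middle at 12.9 ± 8.44 in control and 12.3 ± 6.63 in rescued cells. With the length of the longest coding transcript in place of all exons the leading receptor of each population was the same, Ccr2 and Ccr8 no longer overlapped in rescued Treg cells, and Ccr9 was higher, at 11.3 in place of 5.71 CPM per kb in control Treg cells.

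**Figure D4:**
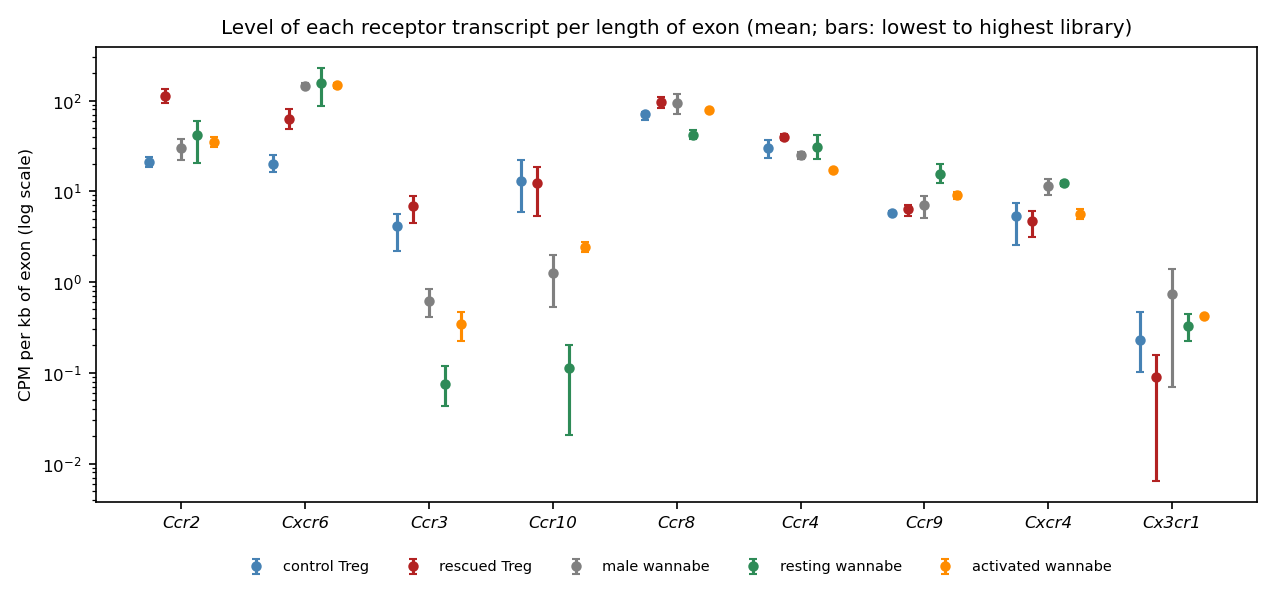
Mean level of each receptor transcript in CPM per kb of exon on a log axis, by population, with bars from the lowest to the highest library. Cxcr6 stands at 146 to 156 in the 3 “wannabe” populations, while Ccr8 leads in control Treg cells at 70.3 and Ccr2 in rescued Treg cells at 112.

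Of 15 other chemokine receptors, 9 were tested in the male and 10 in the female experiment. Calls in this list, and in those of ligands and receptor signalling below, are to be read against all tested genes. Of these, 1.43% were called higher and 0.864% lower in rescued against control Treg cells. Against male “wannabes” the shares were 9.92% and 6.27% for control and 10.0% and 4.06% for rescued Treg cells. In activated against resting “wannabes” they were 11.3% and 11.2%. In rescued against control Treg cells Cxcr3 (log2 fold change 1.71, adjusted p = 0.0359), a receptor of type 1 inflammation, was among those that rose, and Ccr6 (-2.57, adjusted p = 0.00289), the CCL20 receptor, and the lymph node homing receptor Ccr7 fell. The list's median was -0.14. Cxcr3 kept its call in 3 of 8 fits without 1 library (1.47 to 1.96) and lost it without any 1 control library or rescued replicate 2 or 3, with adjusted p from 0.0854 to 0.173, while Ccr6 kept its call in all 8. Ccr7 (-0.96, adjusted p = 0.0122) lost its call without control replicate 1 or 3 or rescued replicate 1 (adjusted p from 0.0524 to 0.0548). Ccr6, Cxcr5 and Ccrl2 were higher and Ccr1 and Ccr7 lower in control Treg cells than in male “wannabes”, and of rescued Treg cells the same comparison gave Ccrl2 higher (1.40, adjusted p = 0.0335) and Ccr7 lower (-1.61, adjusted p = 0.000344). Of these, Ccr1 was not called in DESeq2 (adjusted p = 0.0818) nor without control replicate 2, male “wannabe” replicate 1 or rescued replicate 2 (adjusted p from 0.0600 to 0.179, log2 fold changes over all 8 fits -4.83 to -2.71). Ccrl2 lost its call for control Treg cells without control replicate 2 or male “wannabe” replicate 1 (adjusted p 0.0515 and 0.0746, values from 1.23 to 2.22 over all fits). For rescued Treg cells it lost the call without control replicate 3, male “wannabe” replicate 1 or rescued replicate 2 or 3 (adjusted p from 0.0514 to 0.156, values from 0.96 to 1.96 over all fits). For control Treg cells, Ccr7 (-0.65, adjusted p = 0.0287) and Cxcr5 (0.86, adjusted p = 0.0410) each kept the call in 3 of 8 fits. Both lost it without any 1 control library or rescued replicate 2, Ccr7 also without male “wannabe” replicate 2 and Cxcr5 without replicate 1 (adjusted p from 0.0506 to 0.153 and from 0.0516 to 0.197). Of the 5 receptors called for control Treg cells, 1 was called without control replicate 2. In activated against resting “wannabes” Cxcr3 rose (3.41, adjusted p = 0.000735), and those that fell included Ccr1 (-2.40, adjusted p = 0.0079), Ccr6 (-2.46, adjusted p = 0.0044) and Ackr3. Ackr3, a scavenger of CXCL12, had raw counts of 25, 118 and 43 in resting and 0 in both activated libraries, at least 22.4-fold lower against a floor of 3 counts per library. Its call was lost without either activated library (adjusted p 0.0820 and 0.0821), that of Ccr1 likewise (adjusted p 0.0693 and 0.0839), and that of Ccr6 without activated replicate 2 (adjusted p = 0.0543). Of the 5 called, 2 were called without either activated library.

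Of 16 genes for the members' ligands, 7 were tested in the male experiment. None was called in rescued against control Treg cells by edgeR, 1 was higher at an unadjusted p under 0.05, and DESeq2 called 1, Ccl1. This gene had 0 to 8.58 normalised counts in control and 62.4 to 88.1 in rescued libraries, without overlap (log2 fold change 3.91, adjusted p = 0.0596), and edgeR called it without a filter on low counts (adjusted p = 0.00896), with the replicate block (adjusted p = 0.0417) and without male “wannabe” replicate 1 (adjusted p = 0.0163). Ccl1 was lower in control (log2 fold change -6.88, adjusted p = 0.00202) and in rescued Treg cells (-2.97, adjusted p = 0.0446) than in male “wannabes”, whose libraries held 144 and 1045 normalised counts. The call for control Treg cells held in all 8 fits without 1 library, but that for rescued Treg cells held in 2, without control replicate 3 or male “wannabe” replicate 1. The values over these fits were -3.79 to -0.97, with adjusted p from 0.0551 to 0.679 where the call was lost. In the female experiment Ccl1, Ccl5 (4.22, adjusted p = 0.00199) and Ccl8 of 6 tested rose and none fell, also at an unadjusted p under 0.05 and in DESeq2. Without activated replicate 1 only Ccl5 was called (Ccl8 adjusted p = 0.0797, Ccl1 adjusted p = 0.0566), and Ccl8 did not pass a filter at a mean count of 20. Of 19 symbols listed for receptor signalling and desensitisation, 18 were found in the tables (Adrbk1 is an older name of Grk2), and these were all tested. Gnai2, the inhibitory G protein subunit to which these receptors couple, was higher (0.78, adjusted p = 0.0418) and Rgs10, which speeds the shut-off of such G proteins, lower (-0.74, adjusted p = 0.0303) in rescued than in control Treg cells. Gnai2 lost this call without any 1 control or rescued library (values 0.64 to 0.87 over all fits, adjusted p from 0.0580 to 0.175 where lost). Rgs10 lost it without any 1 control library or rescued replicate 1 or 3 (values -0.87 to -0.68 over all fits, adjusted p from 0.0853 to 0.139 where lost). Gnai2 was also higher in control (1.48, adjusted p = 0.00126) and rescued Treg cells (2.26, adjusted p = 0.000233) than in male “wannabes”, while Pik3cg, a G protein-activated lipid kinase, was lower in both. In activated against resting “wannabes” 4 rose and 4 fell, and of these 8 genes 3 (Rgs2, Rgs10 and Arrb1) kept the call without either activated library and 4 (with Gnb1) without resting replicate 1. Among these, Gnb1 was higher (1.23, adjusted p = 0.0475, but 0.0726 in DESeq2 and from 0.0904 to 0.231 without either activated library or resting replicate 2 or 3), and the arrestin Arrb1 (-1.78, adjusted p = 0.000657) and Rgs10 (-1.15, adjusted p = 0.000644) were lower.

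The transcripts most like each receptor were ranked over the 13 libraries by Pearson correlation of log2 CPM after subtraction of each experiment's mean, among 10240 genes, as a description with no test, since libraries of a population share its state. For Cxcr6 the closest were Id2 (r = 0.978), Fyco1 (r = 0.973) and F2r (r = 0.967), for Ccr8 Ncf4 (r = 0.953), Ly6a (r = 0.942) and Tnfrsf4 (r = 0.939), and for Ccr2 Ell2 (r = 0.921), Lman1 and Fuca2 (both r = 0.917). Ccr4 was most like Skap2 (r = 0.916), Ccr9 Mina (r = 0.867), Ccr10 Snrpn (r = 0.896), Cxcr4 Dnajc4 (r = 0.940) and Cx3cr1 A930015D03Rik (r = 0.919). Ccr3 was too low in the female libraries to be ranked.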

How the data were processed

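Bulk RNA-seq libraries of sorted CD4 T cells were used, 8 from male and 5 from female mice. Per the study's methods and processing notes, the authors sorted cells, amplified RNA with a low-input kit, mapped reads to GRCm38 with STAR 2.7.3a, applied local realignment (GATK) and counted reads per gene. The deposited values are raw counts per gene without normalization. The annotation and strand setting of the counting are not given in the sources used here. Rows without a gene name (at most 0.00841% of counts) were left out. Groups come from the labels. The male columns carry the names of sort markers (DTR, GFP, Thy1) and were matched to the labels through the sort that the methods describe. The series' design text gives the female numbers the other way round (3 activated, 2 resting), and the labels and column names were used.

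Tests used R 4.3.3 and edgeR 4.0.16 (TMM, filterByExpr, quasi-likelihood F test, Benjamini-Hochberg, adjusted p under 0.05), fitted over the 8 male or 5 female libraries, and over all 13 for the difference between changes. The SE is the log2 fold change divided by the square root of F. edgeR's common coefficient of biological variation came to 0.51 (male) and 0.171 (female). Replicate pairs differed by more than counting noise (chi-square per degree of freedom 13.6 or more), and log2 CPM used a prior count of 2. Gene positions and lengths come from GENCODE M21 on GRCm38, to which 96.9% of genes matched by symbol. Promoter windows were given for 8 of the 9 genes, without Ccr10. Alternatives were DESeq2 1.42.0, its size factors, no filter or a mean count of 20, a fit of the 2 populations compared, a replicate block and leaving out each library. The scripts were tested on simulated data. The members and gene lists were chosen with earlier results of these data known. All 9 members are named, and of each other list up to 3 called genes per comparison with the largest log2 fold change and a mean normalised count over 20; further called genes are named in the counts after their values were seen. Results for some genes that this rule covers are not reported here.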

Additional observations from a re-analysis of the deposited data

Results flagged for a closer look

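The change of Ccr2 differed between the experiments by a log2 difference of -2.65, tested as activated minus resting “wannabes” minus the change of rescued against control Treg cells. The rescued libraries (20946 to 29742 normalised counts) lay above the control libraries (4089.9 to 5287), whereas activated libraries (6184 and 7979) lay within the range of the resting ones (4154 to 11923). The call of this difference was lost without activated replicate 1 (adjusted p = 0.107) or replicate 2 (adjusted p = 0.0737). The change of Ccr10 differed in the opposite direction by 4.46, called in 4 of 13 fits without 1 library and not with the replicate block (adjusted p = 0.0981). Its control and rescued libraries overlapped (334 to 1263 and 301 to 1049 normalised counts), whereas activated libraries (111 and 142) were above the resting ones (1.05 to 10.4). Sex, age, treatment and the Foxp3 allele differ between the experiments, and their parts cannot be told apart.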

How the results depend on the processing

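Of the members' log2 fold changes, all 45 kept direction and call with DESeq2's size factors in edgeR, and in DESeq2 40 kept both and 5 gained a call. Without a filter on low counts 3 members in place of 5 were called in activated against resting “wannabes” (Ccr3, adjusted p = 0.0679, and Ccr9, adjusted p = 0.0516, lost). In the difference between the experiments 4 in place of 2 were then called (Cxcr6, adjusted p = 0.0339, and Ccr4, adjusted p = 0.0486, gained), and DESeq2 also called 4. Leaving out 1 library at a time gave 2 to 2 members called in rescued against control Treg cells, 3 to 4 in control and 3 to 4 in rescued Treg cells against male “wannabes”, 1 to 5 in activated against resting “wannabes” and 0 to 3 in the difference. Over these fits, uncalled values changed sign: in rescued against control Treg cells Ccr10 (-0.50 to 0.57) and Cxcr4 (-0.52 to 0.11), in control Treg cells against “wannabes” Ccr9 (-0.70 to 0.17) and Cx3cr1 (-2.68 to 1.67), in rescued Treg cells against “wannabes” Ccr8 (-0.28 to 0.40), Ccr9 (-0.53 to 0.34) and Cx3cr1 (-3.95 to 0.31), and in activated against resting “wannabes” Ccr2 (-0.56 to 0.10) and Cxcr6 (-0.37 to 0.30). The cause was not tested. After subtraction of each group's mean, correlations of same-numbered libraries were -0.0292 to 0.0845, and those of differently numbered libraries -0.129 to 0.0741. With means taken over only 2 or 3 libraries, these values cannot exclude that replicate numbers pair libraries. A fit with the replicate block called 2, 3, 5, 6 and 2 members in the 5 comparisons in the order above, and gave Ccr10 a difference of 5.16 with an adjusted p of 0.0981. With the block, Ccr2 (-0.56, adjusted p = 0.0117) and Ccr4 (-0.99, adjusted p = 0.0139) were gained and Ccr3 (2.59, adjusted p = 0.0786) lost in activated against resting “wannabes”, Cxcr4 was gained in rescued Treg cells against “wannabes” (-1.62, adjusted p = 0.0398), and Cxcr6 in the difference (-2.01, adjusted p = 0.00884). Counts over all genes moved more: rescued against control Treg cells gave 343 called genes, 1195 in DESeq2, 612 without a filter, 580 with only both populations and 114 to 598 without 1 library. Control and rescued Treg cells against “wannabes” gave 2416 and 2105 called genes, 3767 and 3335 in DESeq2, and control against “wannabes” 1549 without control replicate 2. Activated against resting “wannabes” gave 2958, and 751 or 797 without activated replicate 1 or 2. Low counts limit the values of Cx3cr1 in the rescued libraries (0.945 to 23.3 normalised counts) and of Ccr3 and Ccr10 in the resting ones (4.21 to 11.4 and 1.05 to 10.4). Ccr3 did not pass the filter at a mean count of 20 in the female libraries and has no value there, which leaves 4 members called.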
